A study of Mus musculus with 9 samples.

Results

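The 10 genes described here encode proteins of the vessel wall that set its quiescence, its anticoagulant surface and its adhesiveness for leukocytes. They are Angpt2, Tek and Tie1 of the angiopoietin system, Thbd and Procr of the protein C system, Vwf, and the adhesion molecules Sele, Selp, Icam1 and Vcam1. They are 10 of the 28956 gene symbols in the deposited table, and all 10 passed the filter on low counts, which kept 17582 genes. The list was drawn up by name and chosen partly by measured values, namely the lower levels of Angpt2, Thbd and Procr in APAP_MSC than in APAP livers. That comparison was therefore used in the choice, and its values for the 10 genes are given as a description with no test.

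Endothelial cells keep vessels quiet when angiopoietin-1 from perivascular cells activates the receptor TIE2, encoded by Tek. Angiopoietin-2, which activated endothelium makes and stores in Weibel-Palade bodies together with von Willebrand factor and P-selectin, competes for that receptor and, in many settings, antagonises it. Thrombomodulin binds thrombin and the endothelial protein C receptor binds protein C, and together they generate the anticoagulant activated protein C. E-selectin, P-selectin, ICAM1 and VCAM1 let leukocytes roll on and adhere to vessels. In liver the sinusoidal endothelium is the most abundant endothelium, and it normally holds little von Willebrand factor.

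Poly(A) RNA from livers of C57BL6J mice aged 8 weeks was sequenced in 9 libraries, 3 per group. All mice had been given APAP, commonly short for acetaminophen, intraperitoneally at 300 mg/kg. The APAP_MSC mice then received 500000 MSC and the APAP_HDF mice 500000 HDF intravenously 90 min after APAP, the APAP mice received no cells, and 24 h is the time named in the title of the series. MSC usually means mesenchymal stromal cells and HDF human dermal fibroblasts, although neither is spelled out in the labels, and no liver without APAP was analysed here. Hepatocytes are the labelled cell type, yet RNA came from whole liver tissue, and endothelial, macrophage and stellate cell markers were counted in every library. The labels state n = 3 but not that the libraries came from separate animals, so the p-values reflect only how much these samples vary, which may be technical.

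The libraries held 53267000 to 63176000 counts, rounded to 5 digits. The limit that no reads allow is 3 counts per library, which is 0.0453 to 0.0567 CPM and covers counting error only. Levels below are CPM, counts scaled to a common library size, with library sizes scaled by the trimmed mean of M-values (TMM), given for libraries 1, 2 and 3 of each group in the order of the table's columns. CPM is not corrected for transcript length, so each gene is compared across libraries and not with another gene.

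Angpt2 encodes angiopoietin-2. It stood at 1.37, 0.812 and 1.22 CPM in APAP_MSC livers, at 12.3, 8.60 and 5.34 CPM in APAP_HDF livers and at 6.55, 3.55 and 5.34 CPM in APAP livers. The APAP_MSC libraries lay below every other library, while the APAP_HDF and APAP libraries overlapped. The means were 1.13 ± 0.286, 8.76 ± 3.50 and 5.15 ± 1.51 CPM in APAP_MSC, APAP_HDF and APAP livers (SD, n = 3 each), so the APAP_MSC mean was 22.0% of the APAP mean, a log2 fold change of -2.18 ± 0.34 (SE). In whole tissue, fewer cells of a type and less RNA per cell cannot be told apart, here and for every gene below. These values rest on 74, 43 and 69 reads in APAP_MSC livers, 784, 529 and 295 in APAP_HDF livers and 363, 190 and 354 in APAP livers.

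Tek encodes TIE2, the receptor of the angiopoietins. Its level was 5.79, 4.76 and 5.92 CPM in APAP_MSC livers, 10.1, 8.61 and 7.44 CPM in APAP_HDF livers and 11.2, 12.7 and 7.79 CPM in APAP livers. Again the APAP_MSC libraries lay below all others and the remaining groups overlapped. The APAP_MSC mean was 51.9% of the APAP mean, a log2 fold change of -0.94 ± 0.20. Tie1 encodes a related receptor that modulates TIE2 signalling, and it stood at 7.75, 7.48 and 7.61 CPM in APAP_MSC livers, at 10.7, 9.64 and 7.37 CPM in APAP_HDF livers and at 9.65, 13.2 and 10.6 CPM in APAP livers. For Tie1 the APAP_MSC libraries were below the APAP libraries but not below APAP_HDF library 3, and the difference from APAP was -0.55 ± 0.17 on the log2 scale.

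Thbd encodes thrombomodulin. It stood at 2.81, 2.76 and 2.94 CPM in APAP_MSC livers, at 13.0, 6.53 and 3.77 CPM in APAP_HDF livers and at 13.3, 18.0 and 7.41 CPM in APAP livers. The 3 APAP_MSC libraries were close together (mean 2.83 ± 0.0962 CPM, SD) and lower than the rest, whereas the APAP_HDF (7.78 ± 4.76 CPM) and APAP (12.9 ± 5.30 CPM) libraries were spread and overlapped. The APAP_MSC mean was 22.0% of the APAP mean, a log2 fold change of -2.18 ± 0.46. Procr encodes the endothelial protein C receptor, and its level was 2.07, 1.57 and 2.22 CPM in APAP_MSC livers, 10.8, 7.65 and 9.24 CPM in APAP_HDF livers and 7.30, 6.53 and 9.37 CPM in APAP livers. Here too all APAP_MSC libraries lay below all others. The mean of 1.95 ± 0.341 CPM in APAP_MSC livers was 25.2% of the 7.74 ± 1.47 CPM in APAP livers, a log2 fold change of -1.99 ± 0.21.

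**Figure D1:**
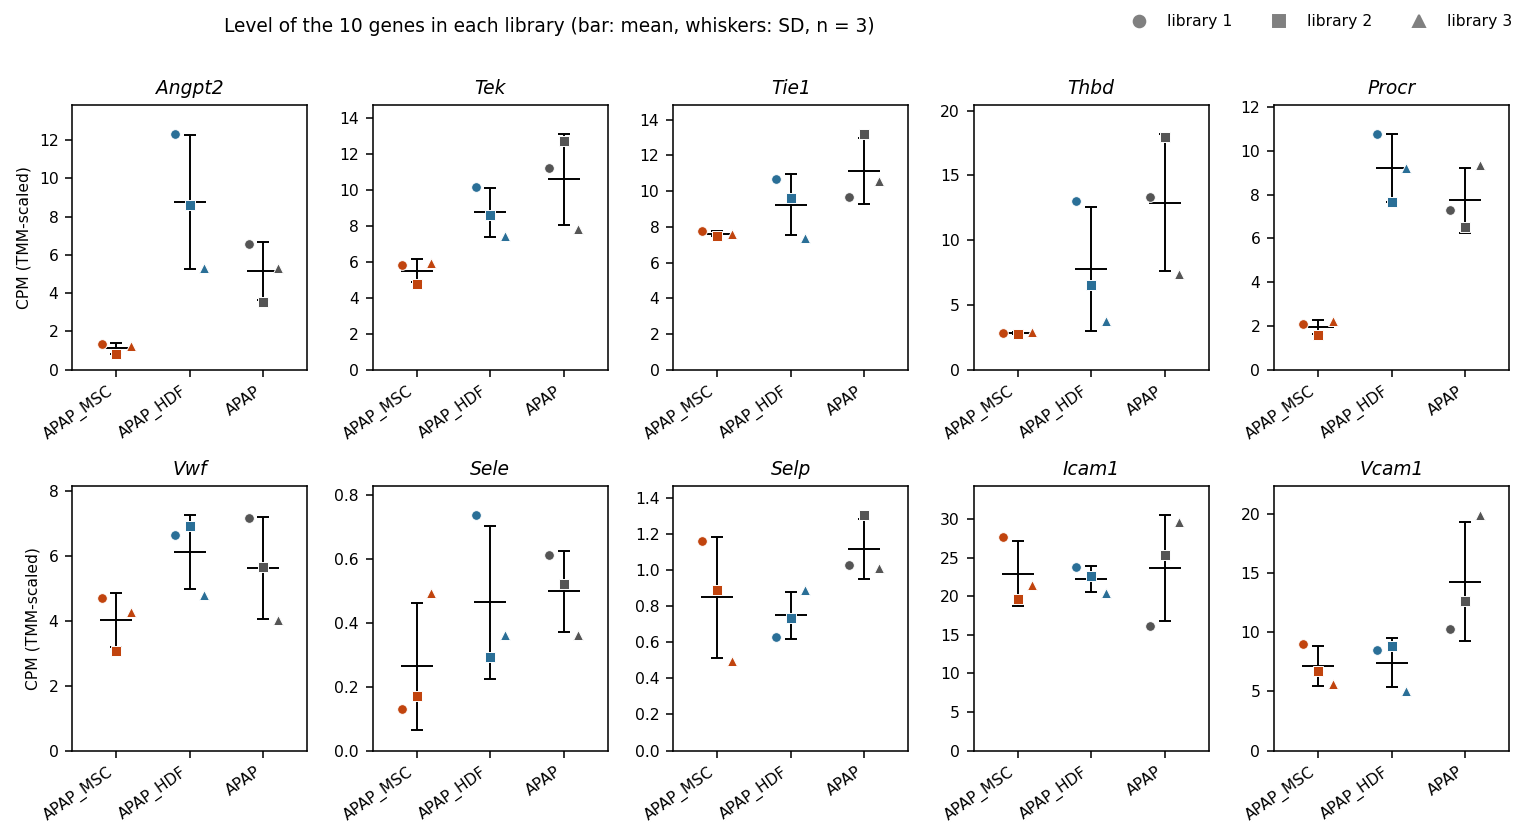
Level of each of the 10 genes in each library, in CPM with TMM-scaled library sizes on a linear axis that starts at 0. Points are libraries, horizontal bars the group mean and whiskers the SD (n = 3); for Angpt2, Tek, Thbd and Procr the 3 APAP_MSC points lie below all 6 others, and for Icam1 the groups overlap.

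The upstream sequence of Procr is shown, a gene that was lower in every APAP_MSC library than in any other. The same held for Tek, whose sequence is not shown. RefSeq's promoter table (build GRCm38.p6, an earlier build than that of the deposited counts) held 6 of the 10 genes, namely Tek, Tie1, Procr, Icam1, Sele and Selp. The 150 bases given, on the plus strand at chr2:155750967-155751116, leave out the 100 bases nearest the start, where another annotated transcript begins. Capitals mark CCACCC, a KLF-type motif with its first base 163 bases before the start, and TGACTCA, an AP-1 motif 154 bases before it.
Procr: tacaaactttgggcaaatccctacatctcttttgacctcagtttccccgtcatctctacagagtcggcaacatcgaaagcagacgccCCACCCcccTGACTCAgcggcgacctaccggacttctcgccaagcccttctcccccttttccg
Over 32851 promoters, the same window held CCACCC in 16.6% and TGANTCA in 4% on either strand. Such a match describes letters only and is not a measured site.

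Vwf encodes von Willebrand factor, the adhesive protein that captures platelets. It stood at 4.71, 3.08 and 4.26 CPM in APAP_MSC livers, at 6.62, 6.92 and 4.80 CPM in APAP_HDF livers and at 7.16, 5.66 and 4.03 CPM in APAP livers. APAP_MSC and APAP overlapped, with a log2 fold change of -0.48 ± 0.24, while each APAP_MSC library was below each APAP_HDF library. Selp encodes P-selectin, which endothelium and platelets both store, and it was 1.16, 0.888 and 0.493 CPM in APAP_MSC livers, 0.629, 0.731 and 0.887 CPM in APAP_HDF livers and 1.03, 1.31 and 1.01 CPM in APAP livers. For Selp it was the APAP_HDF libraries that lay below all APAP libraries, and the APAP_MSC libraries overlapped both groups. Sele encodes E-selectin, made by cytokine-activated endothelium, and it was counted 7, 9 and 28 times in APAP_MSC livers, 47, 18 and 20 times in APAP_HDF livers and 34, 28 and 24 times in APAP livers. At this depth the Sele groups overlapped, and its log2 fold change of -0.90 ± 0.55 in APAP_MSC against APAP became -1.71 without APAP_MSC library 3.

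Icam1 encodes the ligand of leukocyte beta-2 integrins and is made by endothelium, leukocytes and hepatocytes. It stood at 27.6, 19.7 and 21.4 CPM in APAP_MSC livers, at 23.8, 22.6 and 20.5 CPM in APAP_HDF livers and at 16.1, 25.3 and 29.7 CPM in APAP livers. All 3 groups overlapped, the log2 fold change in APAP_MSC against APAP was -0.05 ± 0.20, and its sign turned when a library was left out, with a range of -0.24 to 0.15. Vcam1 encodes the ligand of integrin alpha-4 and is also made by macrophages and stromal cells. It was 9.01, 6.72 and 5.66 CPM in APAP_MSC livers, 8.46, 8.81 and 5.02 CPM in APAP_HDF livers and 10.3, 12.6 and 19.9 CPM in APAP livers. Both groups given cells lay below all APAP libraries, the APAP_MSC mean being 49.9% and the APAP_HDF mean 52.0% of the APAP mean.

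The upstream sequences of Sele and Icam1, textbook cytokine-induced adhesion genes, are shown because the groups overlapped for both. Each holds the letters GGANNTTCC, an NF-kB-type motif searched for after these sequences had been seen. The stretches run 250 bases up to the RefSeq start in GRCm38.p6 on the plus strand, at chr1:164047984-164048233 for Sele and chr9:21015690-21015939 for Icam1. In Sele, capitals mark GGATATTCC 145, TGACTCA 73 and TATAAA 49 bases before the start, and ACAGGAA, an ETS-type motif 67 bases before it, overlaps TGACTCA and is left in lower case beyond that overlap. In Icam1, capitals mark GGAAATTCC 153 bases before the start, which fits the pattern on both strands, and CCACCC 117 and 90 bases before it.
Sele: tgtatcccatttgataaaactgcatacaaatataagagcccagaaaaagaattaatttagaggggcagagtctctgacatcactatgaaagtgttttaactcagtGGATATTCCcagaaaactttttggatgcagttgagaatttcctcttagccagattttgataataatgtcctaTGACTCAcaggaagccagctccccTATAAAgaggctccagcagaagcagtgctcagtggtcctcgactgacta
Icam1: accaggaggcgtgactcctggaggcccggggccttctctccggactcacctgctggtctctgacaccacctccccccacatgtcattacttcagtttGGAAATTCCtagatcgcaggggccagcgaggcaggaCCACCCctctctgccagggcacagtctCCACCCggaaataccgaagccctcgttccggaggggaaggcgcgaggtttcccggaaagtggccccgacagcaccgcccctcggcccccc
Over the same 32851 promoters, 250 bases held GGANNTTCC in 3.59%, TGANTCA in 6.75%, TATAAA in 12.4%, ACAGGAA in 7.2% and CCACCC in 28.1%. The FOXO-type letters GTAAACA, held by 3.17% of promoters, did not occur in these 3 stretches.

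Across the 10 genes, all 10 log2 fold changes of APAP_MSC against APAP were negative, with a median of -0.92 beside -0.01 over all genes tested. The APAP_MSC libraries lay below all APAP libraries for 6 of the 10 genes, namely Angpt2, Tek, Tie1, Thbd, Procr and Vcam1, and 14.7% of all tested genes were separated in this direction. Since this comparison entered the choice of genes, nothing is read from that count. Vwf, Sele, Selp and Icam1 overlapped between APAP_MSC and APAP.

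APAP_HDF against APAP sets injection of another cell type beside APAP alone. It was not used in the choice of genes but shares the APAP libraries. By edgeR's quasi-likelihood test with Benjamini-Hochberg adjustment over 17582 genes, 0 of the 10 genes passed an adjusted p of 0.05, and the background share was 0%. At an unadjusted p under 0.05 there were 2 of the 10, Angpt2 and Vcam1, beside 8.29% of all genes. DESeq2 called 83 genes over the whole table and limma-voom 0, and neither called any of the 10. Angpt2 had a log2 fold change of 0.77 ± 0.31 in APAP_HDF against APAP (adjusted p = 0.583), which was 0.43 without APAP_HDF library 1. Vcam1 had -0.94 ± 0.29 (adjusted p = 0.535).

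The other 8 genes in APAP_HDF against APAP had adjusted p-values of 0.661 to 0.975 by edgeR's quasi-likelihood test. Thbd had a log2 fold change of -0.73 ± 0.43, or -1.33 without APAP_HDF library 1, the highest of its group. Procr had 0.25 ± 0.20 and Vwf 0.13 ± 0.24. Tek and Tie1 each had -0.27, with SE of 0.19 and 0.16. Selp had -0.57 ± 0.33, Sele -0.09 ± 0.53 and Icam1 -0.09 ± 0.20. Only Vcam1 and Selp had groups that did not overlap, both lower in APAP_HDF, beside 6.08% of all tested genes in that direction, and the median over the 10 genes was -0.18.

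APAP_MSC against APAP_HDF compares the injected cell types directly. Angpt2, Thbd and Procr are described without a test, because the APAP_MSC libraries entered their choice. Their log2 fold changes were -2.95 ± 0.35, -1.46 ± 0.45 and -2.24 ± 0.21, and all 3 APAP_MSC libraries lay below all 3 APAP_HDF libraries for each gene. For Thbd the difference was -0.85 without APAP_HDF library 1. Of the other 7 genes, 0 passed edgeR's quasi-likelihood test at an adjusted p of 0.05, beside 8.79% of all genes, and limma-voom called none of the 7. At an unadjusted p under 0.05 there were 2 of the 7, Tek and Vwf, beside 25.5% of all genes. DESeq2 called Tek alone among the 7, beside 2537 genes over the whole table.

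Tek came nearest, with 5.49 ± 0.637 CPM in APAP_MSC and 8.73 ± 1.35 CPM in APAP_HDF livers (SD, n = 3 each), a log2 fold change of -0.67 ± 0.20 and an adjusted p of 0.0558 by edgeR. Its adjusted p was 0.0331 with no filter on low counts, 0.0178 by DESeq2 and 0.0353 when these 2 groups were fitted alone. It did not pass by edgeR with RLE factors (adjusted p = 0.0589) or by limma-voom (adjusted p = 0.0842). When a library was left out, the edgeR adjusted p ranged from 0.0261 to 0.231. Tek passed in 1 of those 9 fits, the one without APAP library 3. Vwf had -0.61 ± 0.24 (edgeR adjusted p = 0.146). Tie1 had -0.28 ± 0.17, Sele -0.81 ± 0.55, Selp 0.18 ± 0.34, Icam1 0.04 ± 0.20 and Vcam1 -0.06 ± 0.29, with edgeR adjusted p-values of 0.323 to 0.922. Of the 7 genes, 2 had APAP_MSC libraries all below the APAP_HDF libraries (Tek and Vwf), beside 16.4% of all tested genes.

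**Figure D2:**
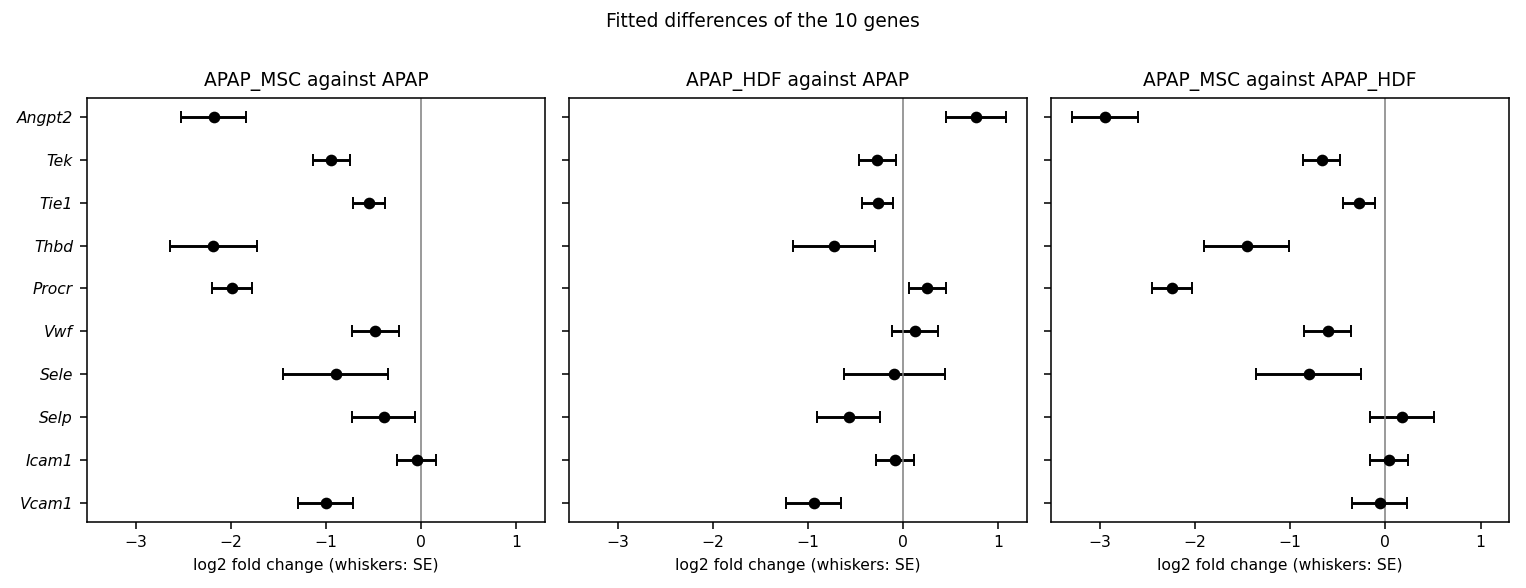
Log2 fold change of each of the 10 genes in the 3 comparisons, from the edgeR fit to all 9 libraries, with whiskers of 1 SE. Angpt2, Thbd and Procr lie farthest below 0 in both panels with APAP_MSC, while in APAP_HDF against APAP they lie at 0.77, -0.73 and 0.25.

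Most endothelial markers were also lower in APAP_MSC livers than in APAP livers. The summed level of 13 general endothelial markers, among them Pecam1 and Cdh5, was 188, 169 and 192 CPM in APAP_MSC livers, 305, 293 and 211 CPM in APAP_HDF livers and 306, 348 and 219 CPM in APAP livers. All APAP_MSC sums were below all others, none of the 13 markers was at 0 in any library, and all 13 log2 fold changes against APAP were negative, with a median of -0.67. Of the 13, Eng and Ptprb fell in APAP_MSC against APAP (edgeR adjusted p = 0.0391 and 0.0494), calls that held in 4 and 1 of the 9 fits that left out a library. In any comparison, 3 of these 9 fits left out a library of the group not compared. A call that held in those 3 had lost no library of its own 2 groups, here and for the counts of fits below. Of the same 13, limma-voom called 0 and DESeq2 called 8, the latter beside 2050 genes over the whole table. In APAP_MSC against APAP, 6.19% of all tested genes passed edgeR's test in either direction, the share beside which these marker counts stand. Of 14 sinusoidal markers, 6 fell in that comparison and 0 rose, and their sum ranged from 226 to 256 CPM in APAP_MSC, 294 to 369 CPM in APAP_HDF and 305 to 434 CPM in APAP livers. Of 14 larger-vessel markers, 1 fell (Wnt9b, at 0 in 1 APAP_MSC library), and the sums of 101 to 113 CPM in APAP_MSC livers and 101 to 135 CPM in APAP_HDF livers overlapped, against 131 to 175 CPM in APAP livers. Of these 14, 4 had positive log2 fold changes against APAP. Lhx6, a larger-vessel marker, was 5.46 to 7.57 CPM in APAP_MSC livers, above the 3.64 to 5.08 CPM in APAP livers. Against APAP_HDF, Lhx6 rose by 1.20 (edgeR adjusted p = 0.00800), a call that held in all 9 fits that left out a library.

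Set against the general endothelial sum of the same library, a scaling added after the values had been seen, Angpt2 averaged 6.14 per 1000 in APAP_MSC, 31.7 in APAP_HDF and 18.7 in APAP livers. On this scale the 3 groups no longer overlapped at all, APAP_MSC being lowest and APAP_HDF highest. Thbd averaged 15.5, 27.6 and 43.1 per 1000 and Procr 10.6, 35.1 and 28.5 per 1000 in APAP_MSC, APAP_HDF and APAP livers, and for both the APAP_MSC libraries remained below all others. Their log2 ratios of APAP_MSC to APAP were -1.61 for Angpt2, -1.47 for Thbd and -1.43 for Procr. Tek came to 30.0, 32.6 and 36.3 per 1000 in the same order of groups, with a log2 ratio to APAP of -0.28 in APAP_MSC livers.

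For 4 genes the sign of APAP_MSC against APAP turned on the endothelial scale. Tie1 had a log2 ratio of 0.09, Vwf of 0.17, Selp of 0.25 and Icam1 of 0.52, and each of these overlapped between APAP_MSC and APAP. Icam1 averaged 125 per 1000 in APAP_MSC, 84.0 in APAP_HDF and 87.1 in APAP livers, with all APAP_MSC libraries above all APAP_HDF libraries. Vcam1 averaged 39.1, 27.2 and 53.7 per 1000 in that order, and its APAP_MSC and APAP libraries overlapped on this scale.

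Markers of other cells that make Icam1, Vcam1, Selp or Vwf also differed between the groups. Summed over 10 monocyte and macrophage markers the range was 66.9 to 91.6 CPM in APAP_MSC, 85.7 to 130 CPM in APAP_HDF and 126 to 186 CPM in APAP livers. Of the 10, 3 fell in APAP_MSC against APAP, and the counts in this paragraph stand beside 6.19% of all tested genes, either direction. APAP library 3, with the highest Vcam1 and Icam1 of its group, also had the highest sum of monocyte and macrophage markers. The 6 Kupffer cell markers, of which none passed edgeR's test in this comparison, summed to 92.4 to 161 CPM in APAP_MSC, 61.8 to 138 CPM in APAP_HDF and 109 to 271 CPM in APAP livers. Of 7 platelet markers tested, Gp9 rose and Clec1b fell in APAP_MSC against APAP, and with 3 untested ones the 10 counted markers summed to 9.50 to 11.1, 12.0 to 16.8 and 13.3 to 17.9 CPM in APAP_MSC, APAP_HDF and APAP livers, with up to 3 at 0 in a library. Clec1b alone averaged 5.05, 7.69 and 8.88 CPM in that order, beside mean platelet sums of 10.5, 14.1 and 15.5 CPM. Much of each platelet sum was therefore Clec1b, and Gp9 went the other way, so nothing is read from the sum about platelet number. Which cells the Clec1b reads came from was not tested. Of 6 neutrophil markers tested, 4 fell, and the sum was 2.87 to 4.21, 3.37 to 10.97 and 9.54 to 12.7 CPM in the same order, with up to 3 markers at 0 in a library. Of 9 stellate cell markers, 3 fell (224 to 255, 224 to 305 and 313 to 379 CPM), of 10 hepatocyte markers 1 rose, Ass1, and of 5 mesothelial markers none passed. The part of these cells in the levels of the 10 genes was not tested.

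**Figure D3:**
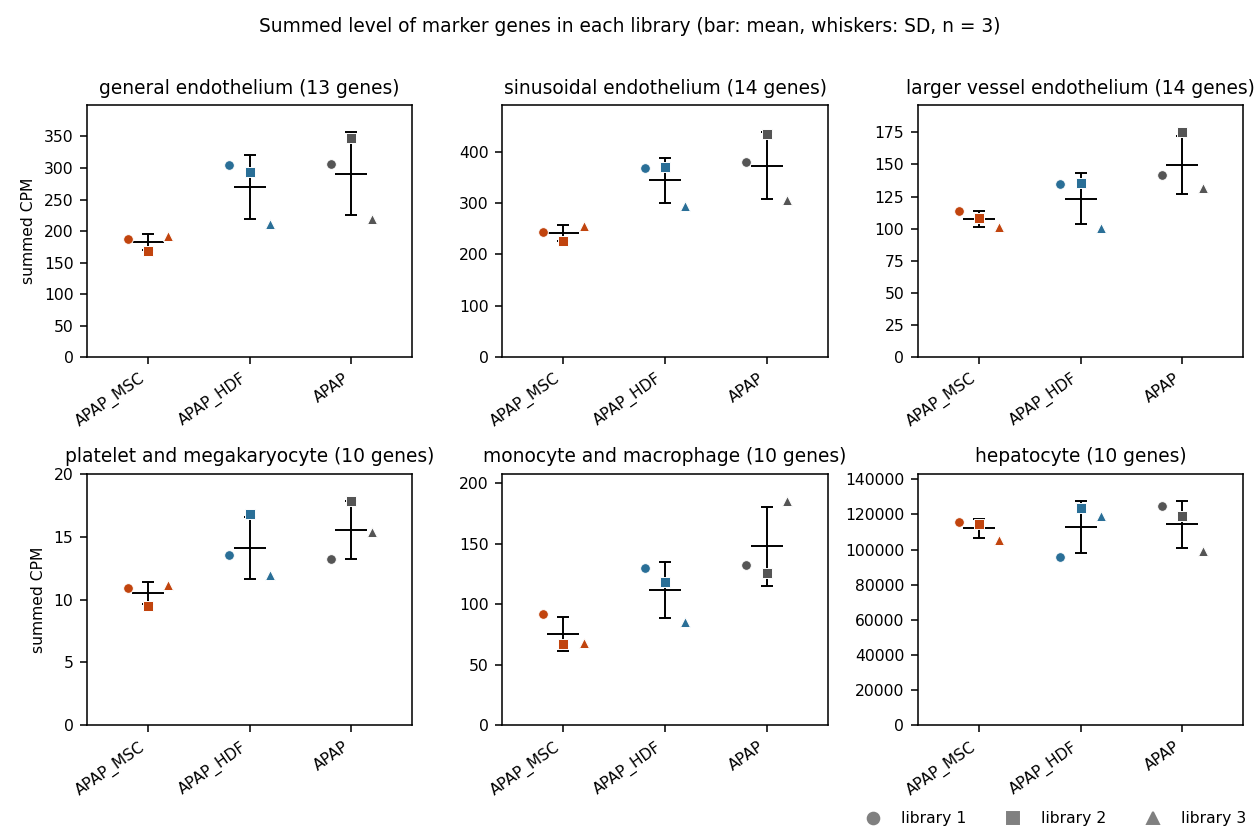
Summed CPM of marker genes for 6 cell types in each library, on linear axes that start at 0. Much of each platelet and megakaryocyte sum is Clec1b. Points are libraries, bars the mean and whiskers the SD (n = 3); the general endothelial sums of 169 to 192 CPM in APAP_MSC livers lie below all others, whereas the hepatocyte sums overlap between the groups.

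Ratios of counts within a library do not depend on the scaling between libraries. The ratio of Angpt2 to Tek, ligand to receptor, was 0.236, 0.171 and 0.205 in APAP_MSC livers, 1.22, 0.998 and 0.718 in APAP_HDF livers and 0.584, 0.279 and 0.686 in APAP livers. The 3 groups did not overlap, APAP_MSC being lowest and APAP_HDF highest. Angpt1, the opposing ligand, was taken for a ratio after its values had been seen, and Angpt2 to Angpt1 was 1.80, 1 and 1.08 in APAP_MSC livers, 131, 23 and 12.8 in APAP_HDF livers and 8.64, 19 and 7.53 in APAP livers. Angpt1 itself stood at 0.757, 0.812 and 1.13 CPM in APAP_MSC livers, at 0.0944, 0.374 and 0.417 CPM in APAP_HDF livers and at 0.757, 0.187 and 0.709 CPM in APAP livers. That was 41, 43 and 64 reads in APAP_MSC, 6, 23 and 23 in APAP_HDF and 42, 10 and 47 in APAP livers. The Angpt2 to Angpt1 ratios of APAP_HDF and APAP livers overlapped, and the highest, 131, rests on 6 Angpt1 reads. The log2 fold changes of Angpt1 were 0.70 ± 0.54 in APAP_MSC against APAP (edgeR adjusted p = 0.502) and 1.61 ± 0.57 in APAP_MSC against APAP_HDF (edgeR adjusted p = 0.102).

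Within the protein C pair, Thbd to Procr was 1.36, 1.76 and 1.33 in APAP_MSC livers, 1.21, 0.854 and 0.408 in APAP_HDF livers and 1.82, 2.75 and 0.791 in APAP livers. APAP_MSC and APAP overlapped, and the APAP_HDF ratios were below every APAP_MSC ratio. Vcam1 to Icam1 was 0.326, 0.342 and 0.264 in APAP_MSC livers, 0.356, 0.390 and 0.245 in APAP_HDF livers and 0.637, 0.499 and 0.673 in APAP livers. Here both groups given cells lay below all APAP libraries and overlapped each other. Tek to Tie1 ranged from 0.636 to 0.778 in APAP_MSC, 0.894 to 1.01 in APAP_HDF and 0.735 to 1.16 in APAP livers, and only APAP_MSC and APAP_HDF did not overlap.

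**Figure D4:**
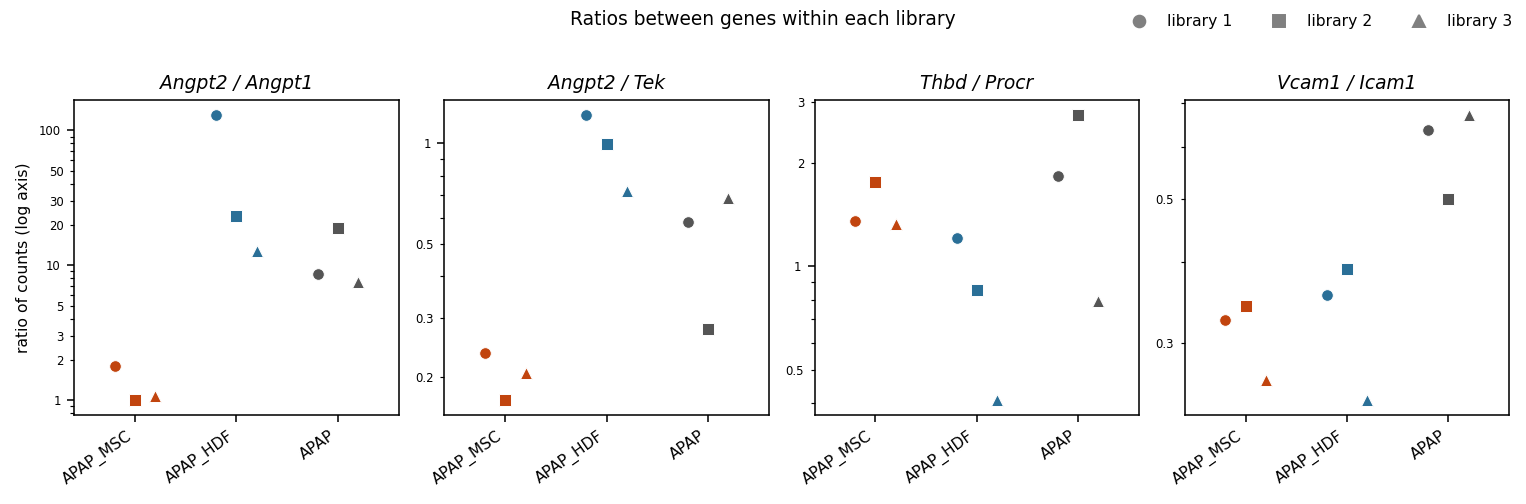
Ratio of the counts of 2 genes within each library, on log axes, with 1 point per library. Angpt2 to Tek separates the 3 groups, from 0.171 to 0.236 in APAP_MSC livers up to 0.718 to 1.22 in APAP_HDF livers, and Vcam1 to Icam1 is lower in both groups given cells than in APAP livers.

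Partner genes of the 10 were counted in 6 lists, 125 genes in all without the 10 themselves, of which 113 could be tested. Some of them, such as Flt4, Ptprb, Esam, Pecam1 and Cdh5, are also among the endothelial markers above, so these counts are not separate from those. In APAP_MSC against APAP, 14 of the 113 passed edgeR's test, 2 higher and 12 lower, which is 12.4% beside 6.19% of all genes, and their median was -0.42. The count was 3, 1 and 4 without APAP_MSC library 1, 2 or 3, 26 and 24 without APAP_HDF library 1 or 3, and 6 and 8 without APAP library 1 or 2. In APAP_HDF against APAP 0 of the 113 passed, and DESeq2 and limma-voom called 0 as well. In that comparison 18 of the 113 had an unadjusted p under 0.05 by edgeR, beside 8.29% of all genes. In APAP_MSC against APAP_HDF 10 passed, 3 higher and 7 lower, which is 8.85% beside 8.79% of all genes, with 4, 2 and 5 without APAP_MSC library 1, 2 or 3 and 4 without APAP_HDF library 1.

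Of 18 angiopoietin, TIE and VEGF genes, 2 fell and 0 rose in APAP_MSC against APAP (median -0.42). Flt4, the receptor of VEGF-C, had a log2 fold change of -0.68 ± 0.14 (edgeR adjusted p = 0.0238), a call that held in 4 of the 9 fits that left out a library. Ptprb, the phosphatase that dephosphorylates TIE2, had -0.82 ± 0.21 (edgeR adjusted p = 0.0494), and this call held in 1 of those 9 fits. Against APAP_HDF, Flt4 fell by 0.65 and Pgf, placental growth factor, by 3.69 on the log2 scale (edgeR adjusted p = 0.0199 and 0.0309), and each call held in 5 of the 9 fits. Pgf was counted 9, 2 and 7 times in APAP_MSC livers, against 199, 50 and 20 times in APAP_HDF livers.

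Of 20 protein C, anticoagulant and fibrinolytic genes, 1 rose and 3 fell in APAP_MSC against APAP (median -0.51). Tfpi2, a Kunitz-type protease inhibitor, rose by 0.71 ± 0.12 on the log2 scale (edgeR adjusted p = 0.0101). Entpd1, the surface enzyme CD39 that breaks down platelet-activating ADP, fell by 1.68 ± 0.32 (edgeR adjusted p = 0.0175), and Nos3, the endothelial nitric oxide synthase, fell by 1.33 ± 0.30 (edgeR adjusted p = 0.0274). The calls of Tfpi2, Entpd1 and Nos3 held in 8, 6 and 4 of the 9 fits that left out a library. F2r, the thrombin receptor PAR1, also passed at -0.67 ± 0.16 and is named after its value was seen. Against APAP_HDF, 3 genes of this list rose and 1 fell, with 12 of 20 values negative and a median of -0.30. Tfpi2, Cpb2, which encodes the fibrinolysis inhibitor TAFI, and Serpinc1, antithrombin, rose by 0.71, 0.81 and 0.60 (edgeR adjusted p = 0.00572, 0.0095 and 0.0379), and these calls held in 9, 8 and 4 of the 9 fits.

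Of 23 leukocyte adhesion genes, 4 fell and 0 rose in APAP_MSC against APAP (median -0.71). Jam2, an endothelial junction protein, fell by 0.71 ± 0.15 (edgeR adjusted p = 0.0214). Cd44, the hyaluronan receptor, and Itgb2, the leukocyte integrin chain that binds ICAM1, fell by 1.29 ± 0.27 and 1.37 ± 0.30 (edgeR adjusted p = 0.0245 and 0.0272). Itgam, which pairs with Itgb2, also fell and is named after its value was seen. The calls of Jam2, Cd44, Itgb2 and Itgam held in 5, 6, 4 and 2 of the 9 fits that left out a library. Itgb2 and Itgam are leukocyte genes, Itgam being also 1 of the 10 monocyte and macrophage markers summed above, and the neutrophil markers, which hold neither, were likewise lower in APAP_MSC than in APAP livers. Against APAP_HDF, Jam2 fell by 0.75 and Esam, another junction protein, by 0.63 (edgeR adjusted p = 0.0120 and 0.0269), with the calls held in 8 and 4 of the 9 fits.

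Of 14 genes of Weibel-Palade bodies and von Willebrand factor handling, 1 rose and 1 fell in APAP_MSC against APAP (median -0.27). Itgb3, the integrin chain shared by the platelet fibrinogen receptor and the vitronectin receptor of endothelium and macrophages, fell by 1.32 ± 0.19 (edgeR adjusted p = 0.00624), and its call held in all 9 fits that left out a library. It fell by 1.36 against APAP_HDF as well (edgeR adjusted p = 0.00307). Gp9, a platelet subunit of the von Willebrand factor receptor, had a log2 fold change of 2.69 ± 0.58 in APAP_MSC against APAP (edgeR adjusted p = 0.0248), from counts of 16, 16 and 38 in APAP_MSC livers, against 4, 5 and 2 in APAP livers. The Gp9 call held in 4 of the 9 fits.

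Of 17 endothelial transcription factors, 2 fell and 0 rose in APAP_MSC against APAP (median -0.36). Klf4 fell by 1.82 ± 0.33 and Klf2 by 0.91 ± 0.23 (edgeR adjusted p = 0.0156 and 0.0425), both known in endothelium as flow-induced activators of thrombomodulin expression. Klf4 stood at 0.904, 0.963 and 0.775 CPM in APAP_MSC livers, at 3.49, 2.15 and 1.56 CPM in APAP_HDF livers and at 2.20, 3.01 and 4.10 CPM in APAP livers, so the APAP_MSC libraries lay below all others. Against APAP_HDF, Klf4 fell by 1.45 (edgeR adjusted p = 0.0227), a call that held in 5 of the 9 fits that left out a library. The Klf2 call held in 3 and the Klf4 call against APAP in 6 of those 9 fits. Klf2 stood at 4.91, 4.55 and 4.72 CPM in APAP_MSC, 7.33, 5.02 and 4.31 CPM in APAP_HDF and 6.64, 11.3 and 8.66 CPM in APAP livers. Its APAP_MSC and APAP_HDF libraries therefore overlapped, unlike those of Klf4.

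Of 21 NF-kB pathway and target genes, 0 passed edgeR's test in APAP_MSC against APAP, with 6 at an unadjusted p under 0.05 beside 22.6% of all genes (median -0.47). DESeq2 called 5 of the 21, beside 2050 genes over the whole table, and limma-voom 0. The smallest p was that of Il1r1, the interleukin-1 receptor, at -0.59 ± 0.16 (edgeR adjusted p = 0.0507). Against APAP_HDF 0 passed, with 2 at an unadjusted p under 0.05 beside 25.5% of all genes and 0 called by DESeq2 or limma-voom, and the smallest p was that of Ccl5, a chemokine, at -1.15 (edgeR adjusted p = 0.175). In APAP_HDF against APAP the smallest p in each list gave edgeR adjusted values of 0.501 for Il1r1, 0.525 for Entpd1, 0.562 for Itgb7, 0.571 for Vegfb and Klf2 and 0.583 for Rab3d. The log2 fold changes there were -0.63 for Il1r1, -1.14 for Entpd1, -0.88 for Itgb7, 0.42 for Vegfb, -0.67 for Klf2 and -0.51 for Rab3d. For Il1r1, Entpd1 and Itgb7 all APAP_HDF libraries lay below all APAP libraries, and for Vegfb above them. Lower levels of Il1r1, Entpd1 and Klf2 than in APAP livers were thus not particular to APAP_MSC livers.

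The genes most like each of the 3 leading genes over the 9 libraries were found by the root mean square difference of centred log2 CPM, among 11716 genes. For Angpt2 these were Runx1, Cd14 and Tnfrsf23, at differences of 0.35, 0.39 and 0.41 beside a median of 1.29 over all candidates. Cd14, a lipopolysaccharide co-receptor of myeloid cells, averaged 3.84 CPM in APAP_MSC, 16.8 CPM in APAP_HDF and 12.8 CPM in APAP livers. For Thbd they were Adam12, Cd93 and Akap12, at 0.24, 0.26 and 0.29 beside a median of 1.02, and Cd93, a surface receptor of endothelium and myeloid cells, averaged 8.67, 18.0 and 26.7 CPM in the same order. For Procr they were Hmga1, Hmga1b and Id1, at 0.17, 0.19 and 0.23 beside a median of 1.02. Hmga1 and Hmga1b are near-identical copies that may share reads, so they may be 1 signal.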

How the data were processed

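Gene-level read counts in 9 mouse liver libraries were analysed as deposited. The authors deposited them as raw whole-number counts per gene symbol, and their table of normalized counts was not used. The submitters' processing notes name HISAT2, Subread, DESeq2 and the builds mm39 and GRCm39, and whether counting used strand is not given in the sources used here. The columns name the group but no replicate number, so libraries 1 to 3 follow column order and were not paired.

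Genes were kept by filterByExpr, which left 17582 genes with 99.97% of counts. TMM factors were 0.934 to 1.11. The quasi-likelihood test of edgeR 4.0.16 (R 4.3.3, robust) was fitted to all 9 libraries with group as its only term, two-sided, with Benjamini-Hochberg adjustment over all genes. Fold changes are log2 with the SE of the fit, and levels are CPM with SD. The steps were tested on simulated data. Alternatives were RLE factors, no filter, DESeq2 1.42.0, voom of limma 3.58.1, only the groups compared, and leaving out each library.

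The 10 genes, the lists and the markers were chosen with earlier results of these data known. Named list genes are up to 3 per list and comparison with the smallest p among those that passed, or else the 1 with the smallest p. Genes most like Angpt2, Thbd and Procr needed a mean of at least 1 CPM. Exceptions are stated where they are named, and 1 gene that passed is not reported here. The lists are 6 of vessel-related genes and 10 of cell type markers. Promoter sequences come from RefSeq, build GRCm38.p6.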

Additional observations from a re-analysis of the deposited data

How the results depend on the processing

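No paired analysis was possible because the table's columns carry no replicate numbers, so the fit with a replicate block was not run. The number of genes called was 1088 in APAP_MSC against APAP, 0 in APAP_HDF against APAP and 1545 in APAP_MSC against APAP_HDF. DESeq2 gave 2050, 83 and 2537 in that order, and with no filter on low counts APAP_HDF against APAP gave 10. For the vessel-related lists, 14 calls in APAP_MSC against APAP became 22 with no filter, 38 by DESeq2 and 27 with only the groups compared, and 10 calls in APAP_MSC against APAP_HDF became 18 by DESeq2. The cause was not tested.

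Leaving out a library gave 87 (without APAP_MSC library 2) to 1676 (without APAP_HDF library 1) calls in APAP_MSC against APAP, with 224 and 371 without APAP_MSC library 1 or 3 and 426 and 603 without APAP library 1 or 2. APAP_HDF against APAP gave 0 to 31, the highest without APAP library 3, and 1 without APAP_HDF library 1. APAP_MSC against APAP_HDF gave 324 to 1730, with 601, 324 and 1020 without APAP_MSC library 1, 2 or 3, and 950 and 906 without APAP_HDF library 1 or 2. The vessel-related lists gave 1 to 26, 0 to 0 and 2 to 15 calls in the 3 comparisons in that order.

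The log2 fold changes of the 10 genes were compared over these tools, filters, scalings and left-out libraries, and all 10 genes share the same fits. A log2 fold change given without a test counted as kept when it stayed within the replicate spread. Where a test was given, it counted as kept when the adjusted p stayed on the same side of 0.05. By this rule 139 of 140 combinations of gene and fit were kept for APAP_MSC against APAP. The numbers were 140 of 140 for APAP_HDF against APAP and 136 of 140 for APAP_MSC against APAP_HDF. The exceptions among these combinations were Sele and Tek, given with those genes. Tek was an exception because it crossed 0.05, while its log2 fold change moved little. In APAP_MSC against APAP_HDF, Sele went from -0.81 to -1.61 without APAP_MSC library 3, more than its replicate spread of 0.67. It counted as kept there because its edgeR adjusted p stayed above 0.05. Division by the summed general endothelial markers, added after the values were seen, moved 9 of the 10 genes by more than the replicate spread in APAP_MSC against APAP and 8 of 10 in APAP_MSC against APAP_HDF. Sele was counted 7 to 47 times per library, which limits its precision.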
